A study of Chrysemys picta and Apalone spinifera with 20 samples.

Results

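In the painted turtle Chrysemys picta the temperature of the egg decides whether an embryo forms testes or ovaries, and this account concerns 100 genes whose RNA stood highest in gonads from the warm, female-producing temperature. They were chosen from the Chrysemys read counts by a score. Each count was divided by the 75th percentile of its library and multiplied by 1000, which is called the scaled count here, and 10 was added before taking log2. The score is the lower of the 31°C gonad levels at stages 19 and 22 minus the highest level among the other 8 Chrysemys libraries, so a score of 1 means that both warm gonad libraries were at least 2-fold above every other library on that scale. The members are the 100 highest scores of 13937 ranked entries, from a table of 13940 entries. The rule left out 3 entries, the ovarian factor FOXL2 among them. Because the rule used every Chrysemys library, all Chrysemys values of these genes are a description, with no test, and tests were run only in the second species.

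RNA came from embryos of Chrysemys, which has temperature-dependent sex determination (TSD), and of the spiny softshell Apalone spinifera, in which sex chromosomes set the sex whatever the temperature. Eggs of both were incubated at 26°C, the male-producing temperature (MPT) of Chrysemys, or at 31°C, its female-producing temperature (FPT). The stage 9 libraries come from trunks, those of stages 12 and 15 from the joined adrenal, kidney and gonad (AKG, here the complex), and those of stages 19 and 22 from the separated gonad. Each of the 20 combinations of species, temperature and stage is 1 library made from a single RNA pool. Pools combined 10 Chrysemys embryos or 5 Apalone embryos, so no library has a replicate. The embryos had not been sexed, and an Apalone pool of either temperature may hold males, females or both. Temperature is replicated only over stages. The p-values of the fits over several libraries below measure the spread left between these pools after stage and temperature are fitted. Those of the tests within a stage measure counting error alone and no spread between pools. With the deposited counts, which hold both reads of each pair, they understate even that error. Library totals ranged from 11610098 to 24606646 counts in Chrysemys and from 5544730 to 9501484 in Apalone, whose reads were also counted on Chrysemys genes. A scaled count of 10 stands for 6.48 to 16.2 counts in a Chrysemys library and 2.68 to 4.96 in an Apalone library.

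An embryonic turtle gonad begins as a ridge of tissue on the kidney that can become either organ. At warm temperature its outer layer thickens into the ovarian cortex, where granulosa cells come to make the estrogen-forming enzyme aromatase, while cool gonads form Sertoli cells that secrete the hormone AMH. The organ also holds stroma, smooth muscle, blood vessels with their red cells, and immune cells, and dissection can carry in neighbouring tissue. In such bulk RNA more cells of a type and more RNA per cell cannot be told apart.

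The label of female-producing gonads was set against marker lists, and no member stood on the lists of the gonad's own cell types. None of the 21 measured entries of an ovary and granulosa list, the 13 of a germ cell list or the 19 of a Sertoli and testis list was a member. The members are 100 of 13937 ranked entries, so lists this short would hold few or none of them in any case. FOXL2, on the ovary and granulosa list, was also left out by the rule. One member without a symbol, XM_005298148, is described as like TEX14, a protein of the bridges between germ cells. Aromatase, CYP19A1, had scaled counts of 0, 2.38, 6.17, 1.23 and 2.57 at 26°C and 1.39, 2.90, 2.71, 8.80 and 122 at 31°C over stages 9, 12, 15, 19 and 22. It was thus high in the warm stage 22 library and near the floor in the warm stage 19 library, which placed it at rank 506 with a score of 0.22. FOXL2 had 11.6, 4.76, 6.17, 12.3 and 7.71 at 26°C and 79.2, 24.7, 8.13, 58.7 and 107 at 31°C, so the warm trunk at stage 9 was above the warm stage 19 gonads. The testis hormone AMH, with 13.2, 11.9, 12.3, 4112 and 30607 at 26°C and 16.7, 7.26, 8.13, 49.9 and 25.8 at 31°C, took the last rank, 13937. The temperature labels of the gonad libraries therefore go with high AMH in the cool gonads and high CYP19A1 in the warm stage 22 gonads. The lists as a whole were mixed. On the ovary and granulosa list 1 entry, FOXL2, was at least 2-fold higher at 31°C at both gonad stages and 1, ESR1, lower. Its median log2 ratios were 0.34 at stage 19 and -0.23 at stage 22. On the Sertoli and testis list 0 were higher and 5 lower, and DHH had 1.39 and 0.47. Of 13851 entries with a gonad count 2.66% were higher and 0.758% lower.

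Scores ran from 3.25 to 0.71 with a median of 0.92. They were above 1 for 43 members and above 2 for 8. Both warm gonad libraries stood above the other 8 for 1013 entries, 7.27% of those ranked, so the 100 members are the upper end of a larger set. The cut falls on a slope without a step: just inside it were XM_005315036 at 0.72, the leukocyte adaptor LPXN at 0.72 and the calcium-binding protein SCGN at 0.71, and just outside XM_005295929 at 0.71, XM_005313132 at 0.70 and the smooth muscle actin nucleator LMOD1 at 0.70. Of the members, 54 were higher at stage 19 than at stage 22 in the warm gonads and 46 were higher at stage 22. The next highest library was the 26°C stage 19 gonad for 44 members and the 26°C stage 22 gonad for 21.

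**Figure D1:**
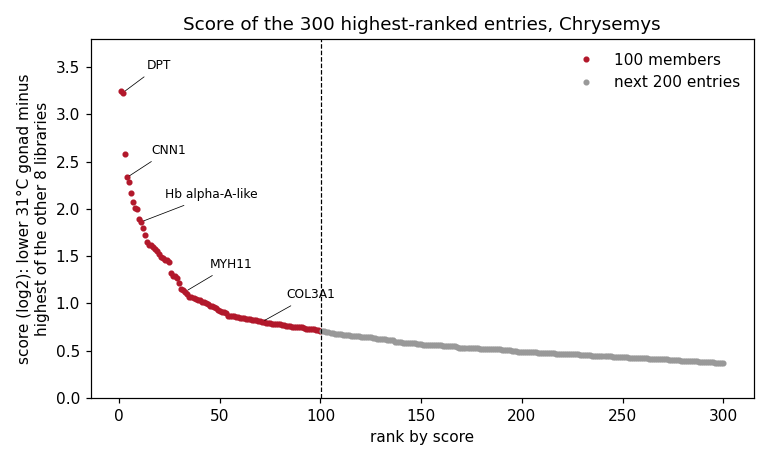
Score of the highest-ranked Chrysemys entries (vertical axis, log2 of scaled count plus 10, lower 31°C gonad library minus the highest of the other 8) against rank. Red points are the 100 members, grey points the entries that follow, and scores fall from 3.25 to 0.71 across the members and continue without a step past the dashed line.

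A symbol could be given to 45 members, a description without symbol to 14 and a LOC number alone to 9, while 32 had no name. From these names 50 members were placed by hand into 7 groups of known role. Hemoglobin entries held most of the members' counts. The 100 members took 6.58% of all counts in the warm stage 19 gonads (95% Wilson interval 6.56 to 6.60) and 6.51% in the warm stage 22 gonads (6.49 to 6.52), against 0.626% to 2.40% in the other 8 libraries. Of this, 3 hemoglobin entries made up 5.51% and 5.59%. The members other than these 3 took 1.07% and 0.917%, against 0.102% to 0.379% elsewhere. These intervals count each read pair once and cover counting error alone.

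**Figure D2:**
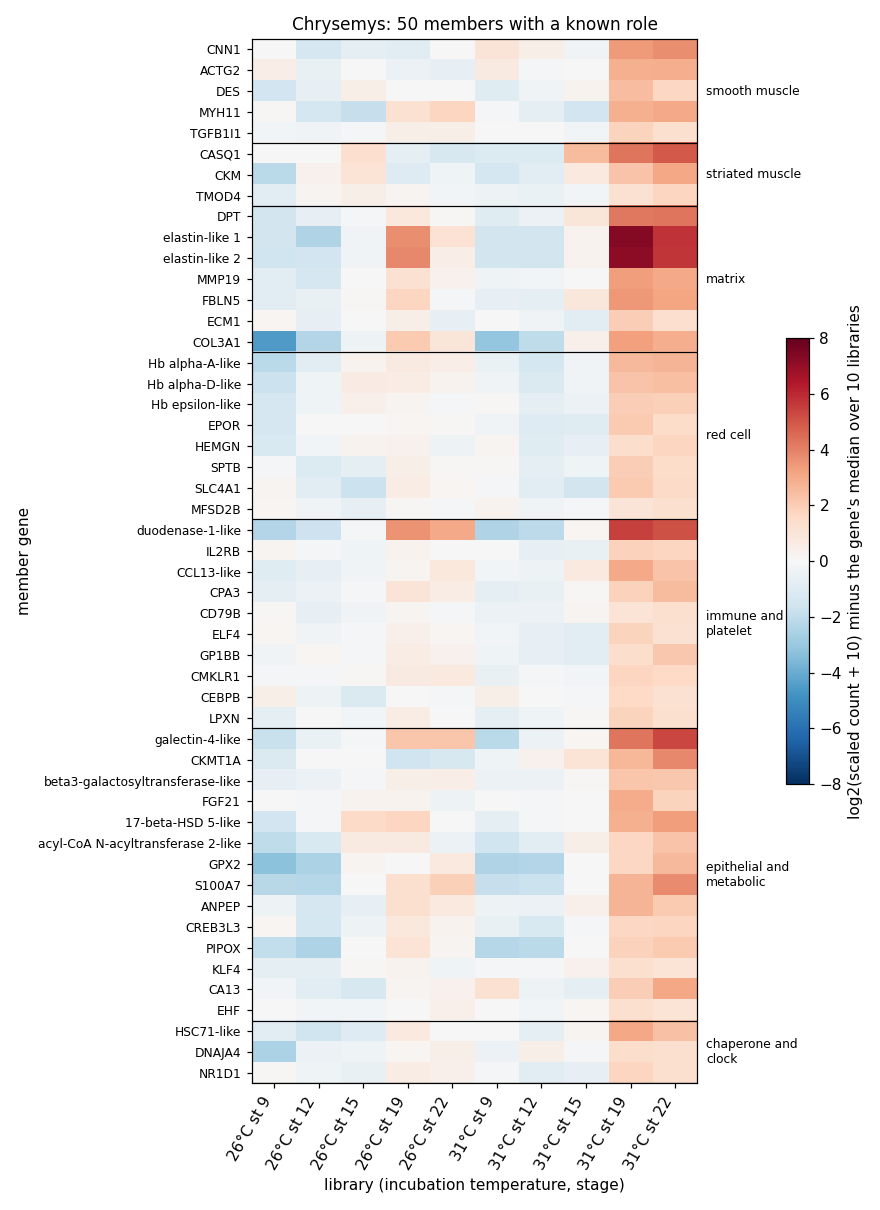
The 50 members with a known role (rows, grouped by role) in the 10 Chrysemys libraries (columns, temperature and stage). Colour is log2(scaled count + 10) minus the gene's median over the 10 libraries, red above and blue below, and the 2 right-hand columns, the 31°C gonads, hold the highest value of every row because the genes were chosen for it.

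Smooth muscle genes were among the highest scores. CNN1, calponin of the smooth muscle thin filament, held rank 4 with a score of 2.33. Its scaled counts over the 5 stages at 26°C were 92.6, 28.6, 46.3, 44.3 and 84.8, and at 31°C 194, 125, 70.5, 1021 and 1296. The warm gonads thus stood apart from all earlier and all cool libraries, and no other library passed 194. ACTG2, the enteric smooth muscle actin, followed the same course, with 2489, 1133, 1639, 1211 and 1059 at 26°C and 2797, 1515, 1778, 12584 and 12991 at 31°C. MYH11, the smooth muscle myosin heavy chain, was already higher in cool gonads than in complexes, with 843 and 1244 at stages 19 and 22 at 26°C, and reached 2727 and 3062 at 31°C. DES, the intermediate filament desmin of all muscle, had 1735 and 1689 at 26°C and 9513 and 5409.9 at 31°C in gonads and 582 to 2419.8 in the 6 earlier libraries. TGFB1I1, a focal adhesion protein of contractile cells, had the smallest log2 ratios of the 5, 1.31 and 0.78, with 1210.2 and 1247 at 26°C and 3012 and 2144 at 31°C.

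Other entries of the contractile list went the same way. Their values come from the same libraries that the rule used, so this too is a description with no test. Of 13 measured entries on a smooth muscle and pericyte list 4 were members, and of the other 9, 3 were at least 2-fold higher at 31°C at both gonad stages and 0 lower, where 2.66% of all 13851 entries with a gonad count were higher by that measure and 0.758% lower. Those 3 were SYNPO2, a filament-binding protein, LMOD1 and MYOCD, the coactivator that switches on smooth muscle genes, whose log2 ratios were 2.07 at stage 19 and 2.07 at stage 22. ACTA2, the vascular smooth muscle actin, lay at rank 112, with 1982 and 2476 in cool and 4657 and 3929 in warm gonads. The summed level of the 9 entries that are not members was 18472 and 15118 in the warm gonads, against 5262 to 11799 in the other 8 libraries.

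Striated muscle contributed 3 members. CASQ1, the calcium store protein of skeletal muscle, had 31.4, 33.3, 98.8, 14.8 and 7.71 at 26°C and 9.72, 10.2, 238, 809 and 1279 at 31°C. From stage 15 to the gonads its level was lower in the cool series and higher in the warm one, with log2 ratios of 5.05 and 6.19 at stages 19 and 22. CKM, muscle creatine kinase, had 114 and 198 in cool gonads and 1249 and 2191 in warm gonads, with 47.9 to 531 in the earlier libraries. TMOD4, which caps thin filaments in skeletal muscle, had 145 and 105 in cool against 299 and 425 in warm gonads. Other skeletal muscle genes were high in the complexes as well. Of 52 measured entries on the list 4 were members, DES included, and of the other 48, 23 were at least 2-fold higher at 31°C at both gonad stages and 0 lower. Of all entries with a gonad count 2.66% were higher and 0.758% lower by that measure. ACTA1, the skeletal actin, shows this, with 1436, 5393, 10324, 139 and 290.5 at 26°C and 1568, 3605, 4883, 7328 and 13360.5 at 31°C, a score below 0 and log2 ratios of 5.62 and 5.48 in the gonads. Summed over those 48 entries the warm gonads held 73038 and 74669.5 scaled counts, the cool gonads 32584 and 33185, and the complexes 65521 to 96667. Whether skeletal muscle carried along with the gonads has a part in the other members was not tested.

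Matrix genes formed the next group, with 7 members, 3 of them elastic fiber proteins. DPT, dermatopontin, a small protein of the collagen matrix, had the second highest score, 3.23, with 6.61, 19.05, 33.95, 73.9 and 38.6 at 26°C and 13.9, 23.2, 81.3, 848 and 869 at 31°C. Both warm gonad libraries held close to the same value and the highest of the other libraries was the warm stage 15 complex. The 2 entries described as elastin-like, the rubber-like core of elastic fibers, had nearly the same course. XM_005278862 had 23.1, 7.14, 64.8, 1181 and 190.2 at 26°C and 22.2, 23.2, 100.3, 14657 and 5009 at 31°C, and XM_005278870 had 24.8, 26.2, 74.1, 1465 and 139 at 26°C against 27.8, 27.6, 117, 14469 and 5474 at 31°C. Both peaked at stage 19 at either temperature, and the cool stage 19 gonads were the next highest library. FBLN5, fibulin-5, which ties elastin to the fiber scaffold, had 556 and 157 in cool and 1906 and 1577 in warm gonads, also with the higher value at stage 19.

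Of the remaining matrix members, MMP19, a matrix-degrading protease, had 64.02 and 30.8 in cool and 311 and 247 in warm gonads. ECM1, a secreted matrix protein, had 644 and 285 in cool against 1853 and 1182 in warm gonads. COL3A1, the fibrillar type III collagen, was higher in gonads than in complexes at both temperatures, with 219.8, 1038, 3963, 22098 and 10092 at 26°C and 615, 1284, 6881, 50748 and 38609 at 31°C. Of 28 measured entries on a matrix and stroma list 3 were members, and of the other 25, 8 were at least 2-fold higher in warm gonads at both stages and 0 lower. Of all entries with a gonad count 2.66% were higher and 0.758% lower. COL1A1, the main type I collagen chain, was not a member, at rank 627, with 49140.0 and 14422 in cool and 155422 and 54717 in warm gonads.

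Red cell genes made up 8 members. The 3 hemoglobin entries, which code for oxygen-carrying globin chains, were abundant in every library. Hb alpha-A-like had 11833, 30602, 64503, 89983 and 77949 at 26°C and 37325, 20730.0, 44873, 327352 and 359940.0 at 31°C. Hb alpha-D-like had 14902, 39236, 77232, 74912 and 59452 at 26°C against 41903, 22276, 40442, 241991 and 260830.0 at 31°C, and lies next to the alpha-A entry in the RefSeq gene order. Hb epsilon-like had 46155, 94679, 156966, 140909 and 109311 at 26°C against 128444, 67752, 87317, 456062 and 451288 at 31°C. At 31°C all 3 were lower than at 26°C in the complexes of stages 12 and 15 and higher at 31°C in trunks and gonads. The neighbour of the epsilon entry, XM_005290009, with a LOC number alone, had 6262 and 3476 in cool and 20680.4 and 29955 in warm gonads. These were the only 2 neighbouring pairs among the 50 members that could be placed in that order.

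The other red cell members are proteins of the red cell and its precursors. EPOR, the erythropoietin receptor, had 88.6 and 84.8 in cool and 369.5 and 236 in warm gonads. HEMGN, a nuclear protein of red cell precursors, had 1376 and 792 in cool against 2868 and 3594 in warm gonads. SPTB, spectrin of the red cell membrane skeleton, had 1546 and 1236 in cool against 4396 and 3127 in warm gonads, and SLC4A1, the band 3 anion exchanger, had 1461 and 1069 in cool against 4161 and 2867 in warm gonads. In the warm gonads HEMGN was higher at stage 22, and EPOR, SPTB and SLC4A1 at stage 19. MFSD2B, a lipid transporter of red cells, had 67.7 and 59.1 in cool and 138 and 169.5 in warm gonads. On an erythroid list 3 of 8 measured entries were members, and of the other 5, 0 were 2-fold higher at both gonad stages, though 4 were above 0 at both. Among all entries with a gonad count 2.66% were 2-fold higher at both, so few or none would be found among 5. Log2 ratios at stages 19 and 22 were 0.32 and 0.996 for FECH, the last enzyme of heme synthesis, 0.79 and 0.82 for TMOD1, 0.998 and 0.06 for ANK1 and 0.12 and 1.79 for RHCE, all 3 of the red cell membrane and its skeleton. CA2, a carbonic anhydrase, had -0.49 and 0.25, and it held more than any other of the 5 in the gonad libraries. Summed, those 5 held 8625 and 11506 scaled counts in the warm and 8815 and 8501 in the cool gonads, and without CA2 the sums were 4372 and 5234 in the warm and 2833 and 3211 in the cool gonads. The part of blood left in the tissue in these differences was not tested.

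Immune and platelet genes gave 10 members. The entry described as duodenase-1-like, a granule serine protease, had 3.31, 11.9, 52.5, 801 and 545 at 26°C and 2.78, 5.81, 65.04, 2985 and 2371 at 31°C, with gonads above complexes at both temperatures. CPA3, the mast cell carboxypeptidase, had a like course at lower counts, with 24.6 and 15.4 in cool and 52.8 and 87.98 in warm gonads and 0 to 8.13 before. IL2RB, a shared interleukin receptor chain of lymphocytes, had 38.2 and 28.3 in cool against 132 and 122 in warm gonads. The level of IL2RB in the earlier libraries, 14.5 to 36.4, was like that of the cool gonads. CD79B, part of the B cell receptor, had 8.62 and 5.14 in cool against 23.5 and 27.9 in warm gonads. ELF4, a transcription factor of lymphocytes, had 13.5 and 10.3 in cool against 52.8 and 32.2 in warm gonads, and GP1BB, a platelet receptor chain, had 48.01 and 38.6 in cool against 93.8 and 163 in warm gonads. CD79B was the single member among 17 measured entries of a blood and immune list, and 0 of the other 16 were 2-fold higher at both gonad stages. By that measure 2.66% of all entries with a gonad count were higher, so a list this short would hold few or none in any case.

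A further 14 members are known from epithelia or metabolism, several of them from gut, liver or kidney of other vertebrates. The entry described as galectin-4-like, a lectin of gut epithelium in mammals, had 4.96, 26.2, 37.04, 224 and 234 at 26°C and 1.39, 27.6, 46.1, 974 and 2109 at 31°C. Cool gonads were above complexes and warm gonads above cool ones. GPX2, the gastrointestinal glutathione peroxidase, had 757 and 1275 in cool and 2337 and 4560.1 in warm gonads, and was also at 864 and 739.8 in the stage 15 complexes. CKMT1A, a mitochondrial creatine kinase that one of the naming sources calls CKMT1B, had 20.9 and 28.3 in cool against 587 and 1305 in warm gonads, and its next highest library was the warm stage 15 complex at 184. FGF21, a metabolic hormone of the liver, was close to 0 outside the warm gonads, with 0 to 6.17 in the other 8 libraries and 90.9 and 34.3 in the warm gonads.

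The entry described as estradiol 17-beta-dehydrogenase 5-like belongs to a family of enzymes that reduce steroids and other carbonyl compounds. It had 4.96, 30.95, 114, 134 and 33.4 at 26°C and 15.3, 30.5, 32.5, 293 and 436 at 31°C. The warm minus cool difference was 1.07 on the log2 scale at stage 19 and 3.36 at stage 22, and it was -1.55 at stage 15. EHF, an epithelial transcription factor, had 0 to 5.14 in the other 8 libraries and 17.6 and 15.02 in the warm gonads. ANPEP, a peptidase of the brush border, had 1241 and 866 in cool and 3422 and 2174 in warm gonads. Of 11 measured entries on a kidney list none was a member, and of 8 on a liver, yolk and plasma list none was. None of 6 on an epithelium and keratin list was a member either, and lists this short would hold few or none of the members in any case. But 2 of the 6, KRT18, a keratin of simple epithelia, and SFN, an epithelial 14-3-3 protein, were at least 2-fold higher in warm gonads at both stages. By that measure 2.66% of all entries with a gonad count were higher. The kidney list summed to 90258 and 91676 in cool and 76616 and 169165 in warm gonads at stages 19 and 22. The liver, yolk and plasma list summed to 19895 and 11252 in cool and 13581 and 20736 in warm gonads. Both sums were thus lower at 31°C at stage 19 and higher at stage 22.

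The last group holds chaperones and a clock gene. The entry described as heat shock cognate 71-like, a constitutive chaperone of the HSP70 family, had 380.2, 229, 339.5, 1187 and 699 at 26°C and 703, 429.6, 813, 6147 and 3663 at 31°C. It was higher at 31°C at every stage, with log2 ratios of 0.87, 0.88, 1.24, 2.36 and 2.37. DNAJA4, a co-chaperone of HSP70, had 1189 and 1488 in cool and 2892 and 2642 in warm gonads. NR1D1, a nuclear receptor of the circadian clock, had 109.6 and 97.7 in cool against 249 and 189 in warm gonads. Of the 18 measured entries on a heat shock and stress list none was a member and 2 were at least 2-fold higher in warm gonads at both stages, beside 2.66% of all entries with a gonad count.

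Outside these groups stood 9 members with a name and 41 without one. LGALS1, galectin-1, had 393 and 165 in cool and 1328 and 1307 in warm gonads, POLM, a DNA repair polymerase, 183 and 179.9 in cool against 463 and 676 in warm gonads, and RASD2, a small GTPase, 35.7 and 46.3 in cool against 114 and 152 in warm gonads. The highest score of all, 3.25, belonged to an entry without a name, XM_005313576. It had 1.65, 0, 0, 3.69 and 2.57 at 26°C and 11.1, 0, 2.71, 489.7 and 191 at 31°C, which is close to the floor in 8 libraries. A second unnamed entry, XM_005305137, held rank 3 with 3.31 to 21.7 in the other 8 libraries and 249 and 180.3 in the warm gonads. XM_005305112, also unnamed, had 195, 619, 1419.8, 186 and 262 at 26°C and 224, 724, 3509, 6912 and 6886 at 31°C, and in Apalone 2835 and 573 in cool and 688 and 77364 in warm gonads. It was the warm stage 22 pool that was high there. No role is given to these entries.

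Before stage 19 the temperature difference of the members in Chrysemys was smaller. The rule asked for warm gonads above every other library, so a larger difference at stages 19 and 22 is built into the choice. Their median log2 ratio of 31°C over 26°C was 0.13 at stage 9, 0.19 at stage 12 and 0.16 at stage 15, beside 0.04, 0.01 and 0.04 for all genes. At stages 19 and 22 it was 1.44 and 1.80, beside 0.03 and 0.05. Groups of members departed from this in the early libraries. The 8 red cell members had a median of 1.23 at stage 9 and of -0.52 and -0.68 at stages 12 and 15, the 3 striated muscle members had -1.10 at stage 12, and the 3 chaperone and clock members had 0.87 and 0.88 at stages 9 and 12.

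**Figure D3:**
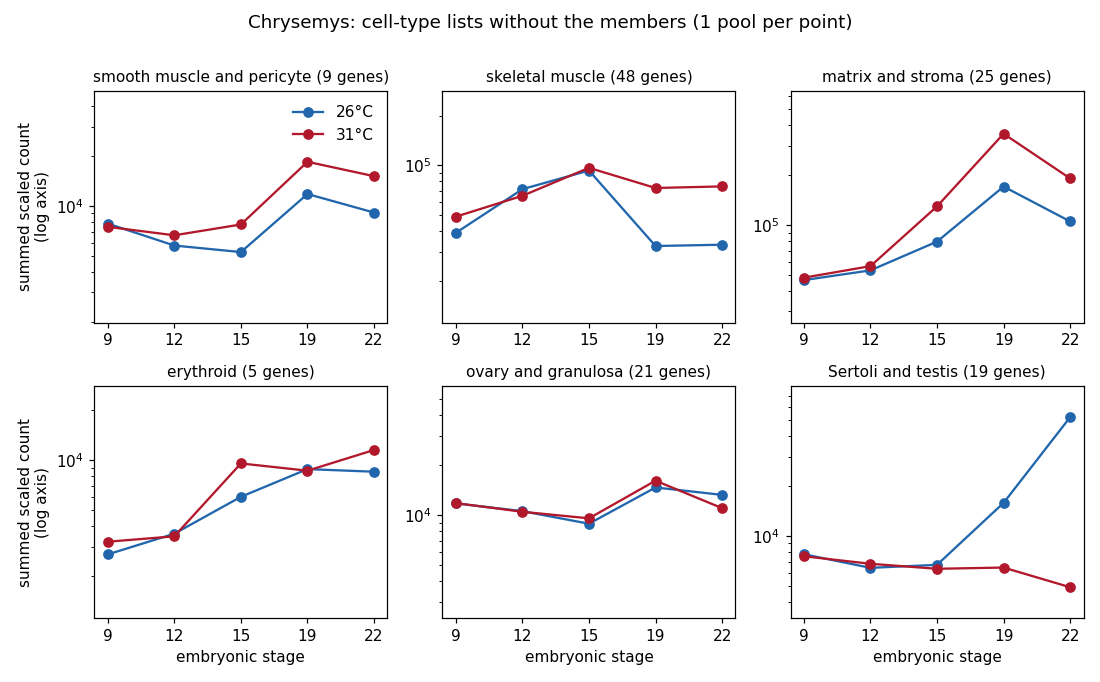
Summed scaled count (log axis, each panel spans the same fold range) of 6 marker lists after the members were taken out, by embryonic stage, in Chrysemys, with blue for 26°C and red for 31°C, 1 pool per point. Smooth muscle, skeletal muscle and matrix sums are higher at 31°C at stages 19 and 22, and the Sertoli and testis sum is lower. The ovary and granulosa sum is higher at 31°C at stage 19, 16152.5 against 14696, and lower at stage 22, 11019 against 13257. The rule used these same libraries, so the sums are a description with no test.

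Apalone, which the rule did not use, allowed the same genes to be tested. Its table held 85 of the 100 members, and 90.9% of all Chrysemys entries. Counts were thin, with 50 of the 85 under 200 counts over the 10 libraries together and 15 at 2000 or more. The share of the library taken by the members was 0.149% to 0.737% in 9 libraries and 1.67% in the 31°C stage 22 gonads. That library stood apart in muscle: its summed level of a skeletal muscle list, members included, was 355597, against 43537 to 88167 in the other 9. The member CKM alone held 81097 of that sum. The 26°C stage 22 library stood apart in another list, smooth muscle and pericyte, with a summed level of 62982, members included, against 14133 to 33209 elsewhere. A liver, yolk and plasma list summed to 94060 and 111968 in the 26°C libraries of stages 15 and 19, against 1145 to 15664 in the other 8. The fits over all 10 libraries below are also given without each of the gonad libraries among these. The medians, 2-fold counts and tests within a stage are not. The gonad markers AMH, FOXL2 and CYP19A1 also differed between the Apalone gonad pools. At stages 19 and 22 AMH had 924 and 0 at 26°C and 330 and 558 at 31°C. FOXL2 had 209 and 787 at 26°C against 112 and 233 at 31°C, and CYP19A1 18.99 and 42.7 against 27.9 and 63.1. The sex of the pooled embryos is not known, and its part in the temperature differences below was not tested.

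The median log2 ratio of the members in Apalone was -0.06, 0.23 and -0.01 at stages 9, 12 and 15, -0.16 at stage 19 and 0.44 at stage 22, where all genes had -0.01, 0.05, -0.02, 0.02 and 0.01. At stage 9, 2 members were at least 2-fold higher at 31°C and 4 at least 2-fold lower, beside 1.76% and 3.69% of all genes. At stage 12 there were 8 and 0, beside 3.57% and 1.63%, and at stage 15 there were 13 and 15, beside 8.28% and 7.32%. At stage 19, 13 members were at least 2-fold higher at 31°C and 15 at least 2-fold lower, beside 7.42% and 6.78% of all genes, and at stage 22 these were 25 and 11, beside 9.03% and 5.64%. Higher at both gonad stages were 2 members, EHF and the unnamed XM_005294155, where 1.8% of all genes were. Lower at both was 1, the TEX14-like entry, where 1.08% were. EHF had 31.6 and 30.5 at 26°C and 79.1 and 87.4 at 31°C in the gonads.

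**Figure D4:**
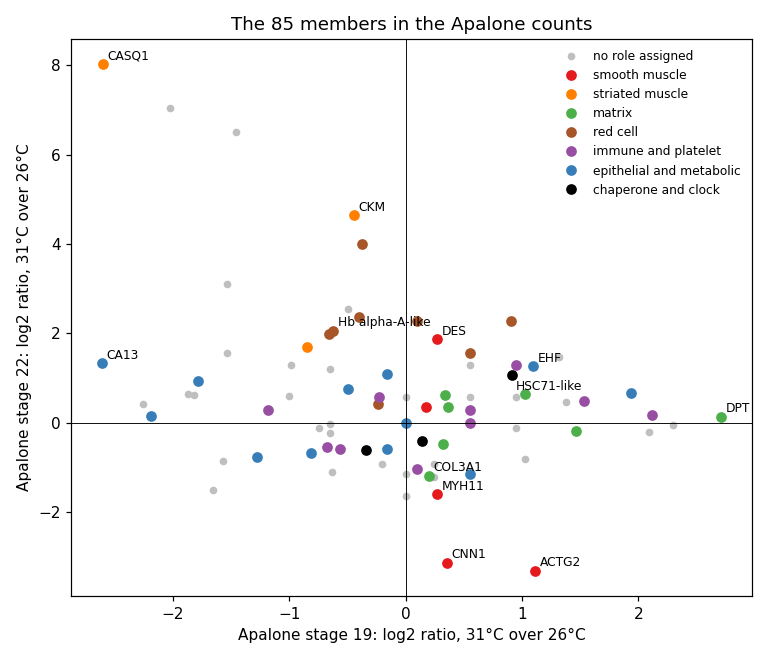
Log2 ratio of 31°C over 26°C (scaled count plus 10) in Apalone at stage 19 (horizontal) and stage 22 (vertical) for the 85 members in its table, coloured by role, 1 pool per temperature and stage. Red cell and striated muscle members lie above 0 at stage 22, CNN1, ACTG2 and MYH11 lie below 0 there, and HSC71-like and EHF are above 0 at both stages.

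A quasi-likelihood fit in edgeR over the 10 Apalone libraries, with stage as a block and an effect of its own for the gonads (3 residual degrees of freedom), called 0 of the 56 members that passed its filter on low counts, in either direction, and 0% of all 10644 genes tested. At an unadjusted p under 0.05 there were 5 members higher and 4 lower, and among all genes 881 and 790. DESeq2 called 1 member higher and 0 lower, beside 1.13% and 1.3% of all genes. That member was HSC71-like, with a log2 fold change of 0.97 (SE 0.26) and an adjusted p of 0.0133 in DESeq2. In edgeR it was 1.0 (SE 0.23) with an adjusted p of 0.165, and over all alternatives the adjusted p ranged from 0.0133 to 0.712. It was higher at 31°C in every Apalone pair, with 738, 681, 1157, 2886 and 3549 at 26°C and 920.2, 1628, 2759, 5437 and 7485 at 31°C. The median fold change of the 56 was 0.18 on the log2 scale, beside 0.03 for all genes. Without the 31°C stage 22 library, whose muscle level stood apart, the median of 66 tested members was -0.39, and 1 was called higher and 0 lower, beside 0.337% and 0.529% of all genes, namely DPT at 2.79 (SE 0.54) with an adjusted p of 0.0287. Without the 26°C stage 22 library DPT was again called higher, and CASQ1 lower, beside 0.354% and 0.535%. Both of these fits rest on the stage 19 pair alone, 1 library against 1, and the lone samples are assumed to vary like the other groups. At stage 22 DPT had 256 and 282. Without the 26°C or the 31°C library of stage 19 the effect rests on the stage 22 pair in the same way. Then 8 or 9 members were called higher, beside 0.738% or 0.973% of all genes, and 1 or 2 lower, beside 0.0364% or 0.1%, with CASQ1, CKM and SPTB among the higher and ACTG2 among the lower.

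Compared within each stage by Fisher's exact test at an adjusted p under 1e-10, which sets 2 libraries against each other and not 2 temperatures, the members were called in both directions. At stage 19, 6 were called higher at 31°C and 7 lower, beside 4.83% and 6.38% of all genes, and at stage 22, 15 higher and 5 lower, beside 4.71% and 6.38%. At stages 9, 12 and 15 there were 4, 7 and 7 higher, beside 2.14%, 3.26% and 3.68%, and 0, 0 and 5 lower, beside 2.39%, 2.11% and 4.81%. The deposited counts hold each read pair 2 times, so the p-values of these tests understate counting error. With pairs counted once, 4 members were called higher and 6 lower at stage 19, beside 250 and 440 of 11940 genes. At stage 22 there were 12 and 4, beside 249 and 375 of 11999, and at stage 12 there were 4 and 0, beside 197 and 96 of 11919. The calls named here and below are those of the deposited counts, and which of them remain with pairs counted once is not given. Among those close to the threshold in Fisher's exact test was COL3A1 at stage 19 (adjusted p = 1.15e-11). CA13 (adjusted p = 2.69e-11) and TMOD4 (adjusted p = 1.09e-12) at stage 22 were others. HSC71-like was called higher at stages 12, 15, 19 and 22. The calls of stage 22 rest on the library that stood apart in muscle, and no second pool of that stage and temperature is among the samples.

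Smooth muscle members CNN1, ACTG2 and MYH11 went against their Chrysemys direction in Apalone at stage 22. CNN1 had 88.6 and 1226 at stages 19 and 22 at 26°C and 116 and 131 at 31°C, so that the cool stage 22 pool alone was high. ACTG2 had 1089 and 17622 at 26°C and 2363 and 1767 at 31°C, with the cool stage 22 pool again far above the rest. MYH11 had 4418 and 10055 at 26°C against 5321 and 3311 at 31°C. All 3 were called lower at 31°C at stage 22, with log2 ratios of -3.13, -3.31 and -1.60. COL3A1 was called lower there as well, with 65457 at 26°C and 28786 at 31°C. DES differed from them and was called higher at stage 22, with 1222 and 2201 at 26°C against 1479 and 8034 at 31°C at the gonad stages. At stage 19 ACTG2 and COL3A1 had been called higher at 31°C, with log2 ratios of 1.11 and 0.20. The call of COL3A1 at stage 19 was close to the threshold.

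All 3 striated muscle members and 5 of the 8 red cell members were called higher at 31°C in Apalone at stage 22, and 0 of them at stage 19. These are calls of the deposited counts, and that of TMOD4 was close to the threshold. CASQ1 had 50.6 and 6.10 at 26°C and 0 and 4179.6 at 31°C at stages 19 and 22. CKM had 1203 and 3244 at 26°C against 879 and 81097 at 31°C. The warm stage 22 pool is thus the single library high in both. Hb alpha-A-like had 24044 and 7280.5 at 26°C and 15595 and 30379 at 31°C, and was called lower at stage 19 and higher at stage 22. SPTB had 614 and 60.98 at 26°C against 469.8 and 1131 at 31°C, and SLC4A1 had 342 and 97.6 at 26°C against 367 and 515 at 31°C. SPTB and SLC4A1 were at their lowest Apalone value in the cool stage 22 pool and at their highest in the warm one. The median log2 ratio of the 8 red cell members was -0.31 at stage 19 and 2.17 at stage 22.

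The elastin-like entries had low counts in Apalone. Elastin-like XM_005278862 had 6.33 and 18.3 at 26°C and 23.3 and 33.98 at 31°C. DPT was present, with 37.4, 137, 97.01, 127 and 256 at 26°C and 54.6, 389, 121, 884 and 282 at 31°C, and it was called higher at 31°C at stages 12 and 19. FBLN5 had 576 and 1140.2 at 26°C against 721 and 811 at 31°C. The 17-beta-dehydrogenase 5-like entry was lower at 31°C in Apalone gonads, where Chrysemys had it higher. It had 103, 488, 2343, 3873 and 1848 at 26°C and 159.7, 470.1, 1234, 2200.0 and 1146 at 31°C, and it was called lower at stages 15, 19 and 22. Its highest values at 26°C, at stages 15 and 19, lie in the libraries that stood apart in liver genes, whose part in this was not tested. At stage 22, where it was also lower, the liver sums were 6713 at 26°C and 6534 at 31°C. CA13, a carbonic anhydrase, had 2291 at 26°C and 367 at 31°C at stage 19, where it was called lower, and was called higher at stage 22. Its stage 22 call was close to the threshold. The 26°C stage 19 library is again the one with the liver sum of 111968, against 2851 in the 31°C one, and its part was not tested.

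**Figure D5:**
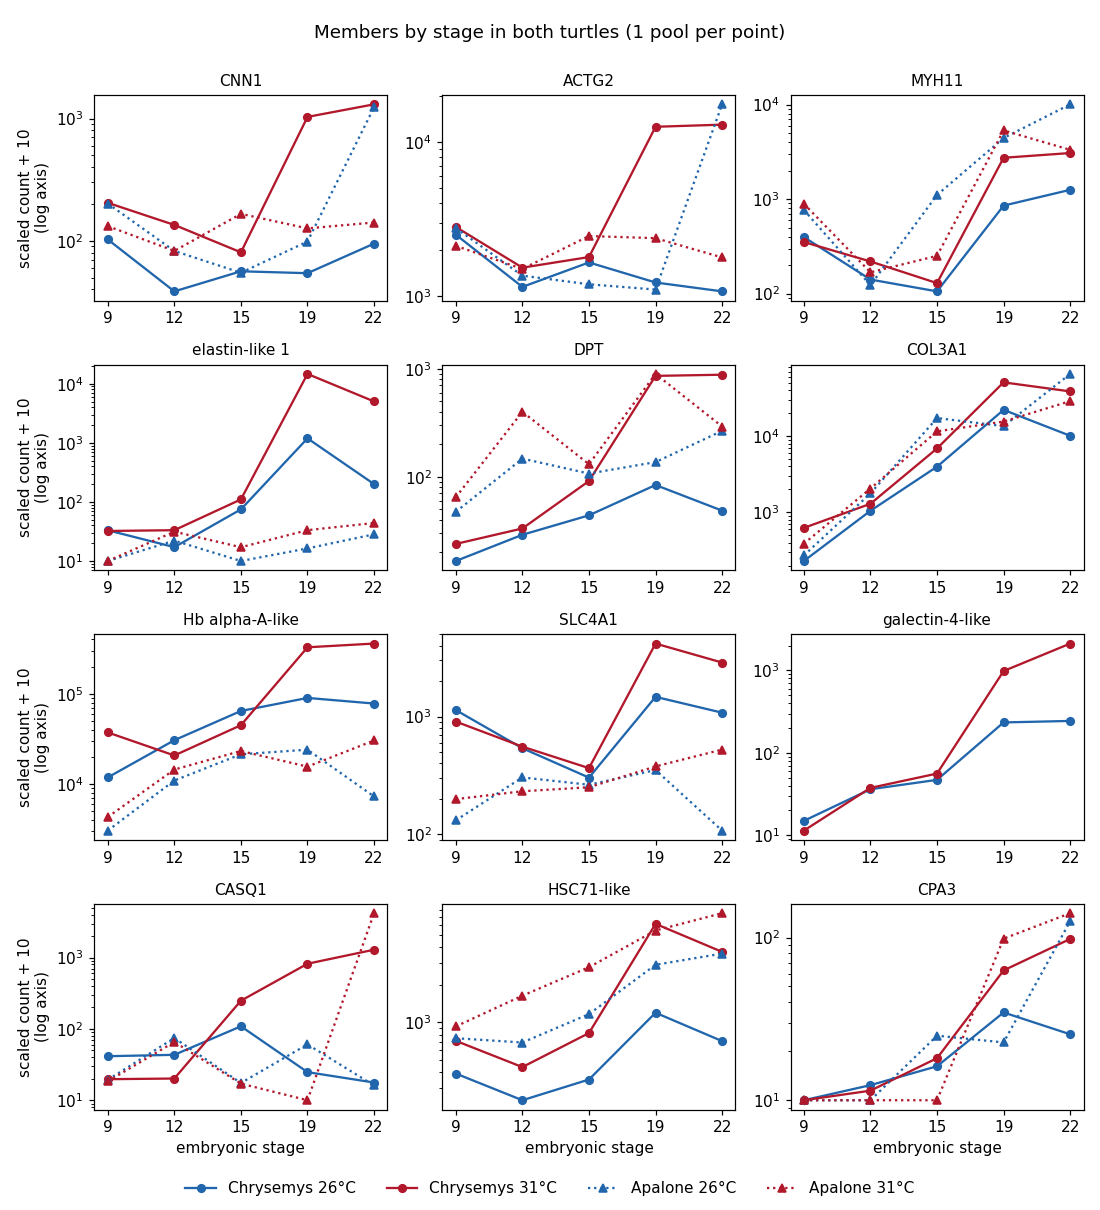
Scaled count plus 10 (log axis) of 12 members against embryonic stage in Chrysemys (circles, solid lines) and Apalone (triangles, dotted lines) with blue for 26°C and red for 31°C, 1 pool per point. In Chrysemys the red line is above the blue one at stages 19 and 22 in every panel, while in Apalone CNN1, ACTG2 and MYH11 are higher at 26°C at stage 22, and galectin-4-like has Chrysemys values alone.

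The rule did not ask whether these genes are higher in late gonads than in earlier complexes of a species without TSD, and it was tested in Apalone. In Chrysemys, however, the rule took genes higher in warm gonads than in the complexes, so the members were chosen for a difference of this kind. The shares of all genes given below are not from genes chosen in that way. With stage and temperature in the fit (4 residual degrees of freedom), gonads of stages 19 and 22 were compared with complexes of stages 12 and 15, and tissue and stage cannot be told apart in it. Of the 56 members tested 10 were called higher in gonads and 0 lower, beside 5.35% and 3.08% of all genes, and 46 had a fold change above 0 and 10 below. The median was 0.85 on the log2 scale, beside -0.000938 for all genes. The filter on low counts can pass a gene on its gonad counts alone, which favours members high in gonads. Without that filter 10 of 85 members were called higher and 0 lower, beside 617 and 353 of 12678 genes. Then 62 had a fold change above 0 and 23 below, with a median of 0.74, beside 0.01 for all genes. Since this is a comparison between stages and stage is in the fit, the spread between stages of the same tissue does not enter these p-values. Without the stage term that spread enters, and the fit called 2 higher, MYH11 and HSC71-like, and 0 lower, beside 0.78% and 0.301% of all genes. Without the 31°C stage 22 library 11 members were called higher and 3 lower, beside 3.48% and 2.24%, the lower ones being Hb epsilon-like, XM_005290009 and CKM. Without the 26°C stage 22 library the calls were 9 higher and 1 lower, CKMT1A, beside 4.35% and 1.9%. Without the 26°C stage 19 library they were 11 higher and 0 lower, beside 339 and 198 of 10981 genes.

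The 10 members called with the stage term in the fit come from different roles. Contractile and matrix members were MYH11, with a log2 fold change of 4.27 (SE 0.44, adjusted p = 0.000667 in edgeR), DES with 1.82 (SE 0.35, adjusted p = 0.0134), COL3A1 with 2.33 (SE 0.25, adjusted p = 0.000824) and FBLN5 with 1.10 (SE 0.24, adjusted p = 0.0226). The granule proteases were duodenase-1-like with 4.82 (SE 0.79, adjusted p = 0.00854) and CPA3 with 5.58 (SE 1.18, adjusted p = 0.0296). CPA3 was at 0 to 14.9 in the 6 earlier Apalone libraries and at 12.7 and 116 at 26°C and 88.4 and 131 at 31°C in gonads. HSC71-like had 1.73 (SE 0.16, adjusted p = 0.000408), 17-beta-HSD 5-like 1.20 (SE 0.23, adjusted p = 0.0128) and EHF 3.02 (SE 0.77, adjusted p = 0.0410). The unnamed XM_005293024 had 5.92 (SE 1.22, adjusted p = 0.0220). It was near 0 in Chrysemys outside warm gonads, 0 to 5.14, with 35.2 and 42.9 in them, while in Apalone gonads it had 44.3 and 91.5 at 26°C and 37.2 and 43.7 at 31°C.

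Hemoglobins, actins, myosins and the elastin-like entries have near relatives with similar sequence, and how reads that match several copies were counted is not given in the sources used here, so the split of counts among such copies is uncertain. Counting did not use strand, and reads of overlapping genes on opposite strands cannot be told apart.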

How the data were processed

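RNA-seq of 20 pooled libraries was used. The deposited values are raw read counts per gene, with no scaling. The authors aligned the paired reads with GSNAP, for Apalone too against Chrysemys gene models of genome 3.0.1, and obtained counts with HTSeq without strand, and the submitters' notes also name Trimmomatic 0.27. Every count is even, so each pair adds 2, and fits were repeated with pairs counted once. Since Apalone reads were counted on genes of another species, levels are not compared between species.

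Scaled counts divide by the 75th percentile over all entries of a library. Log2 ratios and levels add 10 to the scaled count, which understates changes of low genes. The members, marker lists, role groups and tests were chosen with earlier results of these data known, and the roles after the values were seen. Named with values are the 25 highest-scoring members with a symbol, members on a marker list, members called in an edgeR test, the entries at the threshold, and up to 4 examples per group. Other genes named were chosen after their values were seen. A value of 0 allows up to 3 read pairs.

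Apalone was tested with edgeR 4.0.16 (TMM, filterByExpr, quasi-likelihood, Benjamini-Hochberg over all genes tested, adjusted p under 0.05) and by two-sided Fisher's exact test per stage with upper-quartile library sizes (adjusted p under 1e-10, the study's threshold, without its further scaling to housekeeping genes). DESeq2 1.42.0 was an alternative. R 4.3.3 ran these fits, and Python 3.11.15 was used with pandas 2.3.3, scipy 1.17.1 and matplotlib 3.10.9. On simulated Apalone counts the edgeR fit recovered 90.8% of genes changed 4-fold for the gonad temperature effect and 98.5% for gonads against complexes. The simulation gave all genes the same dispersion and each changed gene the same change at both gonad stages. It therefore does not show what the fit recovers where the temperature effect differs between stages, as in the Apalone pools. Symbols came from the descriptions in the study's supplementary tables and from a RefSeq table of another build (ASM1138683v2), used for names and gene order alone. Of 1604 entries that both sources name, 1531 have the same symbol.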

Additional observations from a re-analysis of the deposited data

Results flagged for a closer look

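Of the 85 members listed for Apalone, 41 had log2 ratios of 31°C over 26°C of opposite sign at the gonad stages, and 7 of these were at least 2-fold at both. With 1 pool per stage and temperature none of these differences was tested. The same counts were not made over all genes, so they are not read as a trait of the members. The ratio was higher at stage 22 than at stage 19 by 10.62 for CASQ1, 9.08 for the unnamed XM_005305112, 7.97 for the unnamed XM_005305137, 4.64 for XM_005283730, described as like the cytochrome c oxidase subunit 7A2, 3.94 for CA13 and 3.09 for the unnamed XM_005313671. For ACTG2 the difference was -4.42, since its 31°C level was above that at 26°C in the earlier gonads and below it in the later ones. In CASQ1, XM_005305112, XM_005305137 and XM_005283730 the 31°C stage 22 library, which stood apart in skeletal muscle genes, was the high one. The value of XM_005313671 is near the floor. It rests on deposited counts of 6 and 0 at 26°C and 0 and 8 at 31°C at stages 19 and 22. For XM_005283730 the stage 19 ratio likewise rests on 6 counts at 26°C and 0 at 31°C.

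The TEX14-like entry XM_005298148 was higher at 31°C in both Chrysemys gonad stages, for which it was chosen, and lower at 31°C in both Apalone gonad stages, where its ratio closest to 0 was -1.52. In Apalone gonads it had 50.6 and 116 scaled counts at 26°C, and 9.30 and 34.0 at 31°C. These stand for only 16 and 38 deposited counts at 26°C and 4 and 14 at 31°C. Fisher's exact test called the entry at neither gonad stage. The difference between the species was not tested.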

How the results depend on the processing

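Other scalings and pseudocounts kept 74 to 92 of the 100 members. Scoring on one warm gonad library kept fewer, with 51 when stage 19 was left out and 39 when stage 22 was left out, and the 25 highest scores stayed among the members in every setting tried. The effect of library totals in place of the upper quartile was taken over genes with at least 100 counts in the libraries of a stage. Their median moved to -0.20, 0.11, 0.12, -0.27 and -0.32 at the 5 Chrysemys stages and to 0.12 at Apalone stage 19. For the Apalone gonad temperature effect, DESeq2 called 1 member higher, and leaving out one gonad library at a time gave 1 to 9 higher and 0 to 2 lower: 8 and 9 higher without the 26°C or the 31°C stage 19 library, among them CASQ1, CKM, SPTB and hemoglobins, and 1 without either stage 22 library. For gonads against complexes, no replicate block gave 2 members higher, and leaving out one library gave 9 to 11 higher and 0 to 3 lower. Stage pairs the libraries of the 2 temperatures by design, since each stage has 1 pool per temperature. It does not pair gonads with complexes, which come from different stages. Counting each read pair once gave 4 calls higher at stage 12 and 3 lower at stage 15 in the Fisher tests. The Apalone median was 0.11 at stage 12 and -0.044 at stage 19 with 50 added to scaled counts, and at stage 22 it was 0.59 with 1 added and 0.17 with 50 added. The causes of these shifts were not tested. The other 76 values stayed close to those reported. Depth limits what could be seen in Apalone, where 50 of 85 members had under 200 counts.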
